A study of Mus musculus with 6 samples.

Results

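The genes described here encode the machinery that shortens, decaps and degrades messenger RNA, and the Argonaute and Tnrc6 proteins that silence it. They were chosen by symbol: every probe whose platform symbol, or current synonym, belongs to the Cnot, Lsm, Exosc, Dcp, Dcps, Edc3, Edc4, Xrn, Upf, Smg, Ago or Tnrc6 genes. This gave 50 probes of 23473 on the array, 1 for each of 50 genes of 16390 named. They comprise 10 genes of the CCR4-NOT complex, 9 Lsm genes, 6 decapping genes, 2 Xrn exonuclease genes, 9 exosome genes, 7 genes of nonsense-mediated decay, 4 Argonaute genes and 3 Tnrc6 genes. Other genes that fit the names, among them Cnot1, Exosc6, Lsm2, Lsm5, Lsm7, Lsm14a, Upf3a and Upf3b, were not analysed here.

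RNA came from testis of C57/BL6 mice and was measured on 6 one-colour arrays in 3 groups of 2. The MVH precipitates hold RNA brought down from testis lysate with an antibody against MVH (DDX4), the DEAD-box helicase of germ cells. The IgG precipitates hold RNA brought down from such lysate with normal rabbit IgG, and total RNA (labelled WCE) was taken with no antibody. No age or separate animal is given for an array, so the spread behind each p-value is that between arrays and may be technical. The protocol in the labels describes no crosslinking, and the dispersed testis cells include somatic cells.

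Most mRNAs decay by a common route. Deadenylases of the CCR4-NOT complex shorten the poly(A) tail, the Lsm ring binds the shortened end, Dcp2 with its activators removes the cap, and Xrn1 degrades the body, while the exosome degrades from the other end. MicroRNAs, held by Argonaute proteins, reach this machinery through Tnrc6 scaffolds, and the Upf and Smg proteins send transcripts with early stop codons to it. In male germ cells many of these proteins gather in cytoplasmic granules together with MVH. The arrays measured the mRNAs that encode these factors, not the proteins.

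All 50 genes were listed on all 6 arrays, so none was lost to blank cells. Intensities were scaled so that each array had a median of 30. The SD of the log2 difference between the 2 arrays of a group was 0.44 over the 50 genes for MVH, 0.47 for IgG and 0.48 for total RNA, against 0.47, 0.60 and 0.45 over 21241 probes. Between 48 and 49 of the 50 differed less than 2-fold between the arrays of a group. The median intensity of the 50 was 206 on IgG array 1 and 121 to 158 on the other 5 arrays. They were thus brighter than most probes, and the shares of all probes given below were not matched for brightness. The germ cell markers were listed on all arrays, with a summed intensity over 14 probes of 228679 and 299454 for MVH, 219367 and 298430 for IgG and 260999 and 279383 for total RNA, most of it from Tnp1, Prm1 and Prm2. Tnp1 and Prm2 had the same values in total RNA, 74564 and 77410, the highest listed on those 2 arrays. Whether the top of the scale limits these sums was not tested, so they are no measure of germ cell content. Of the 14 germ cell probes, Sycp3 (log2 1.79) and Zpbp (1.14) were higher with MVH than with IgG and Tex101 (-1.70) lower, and the median of the 14 was 0.04. The number of arrays limits the precision.

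**Figure D1:**
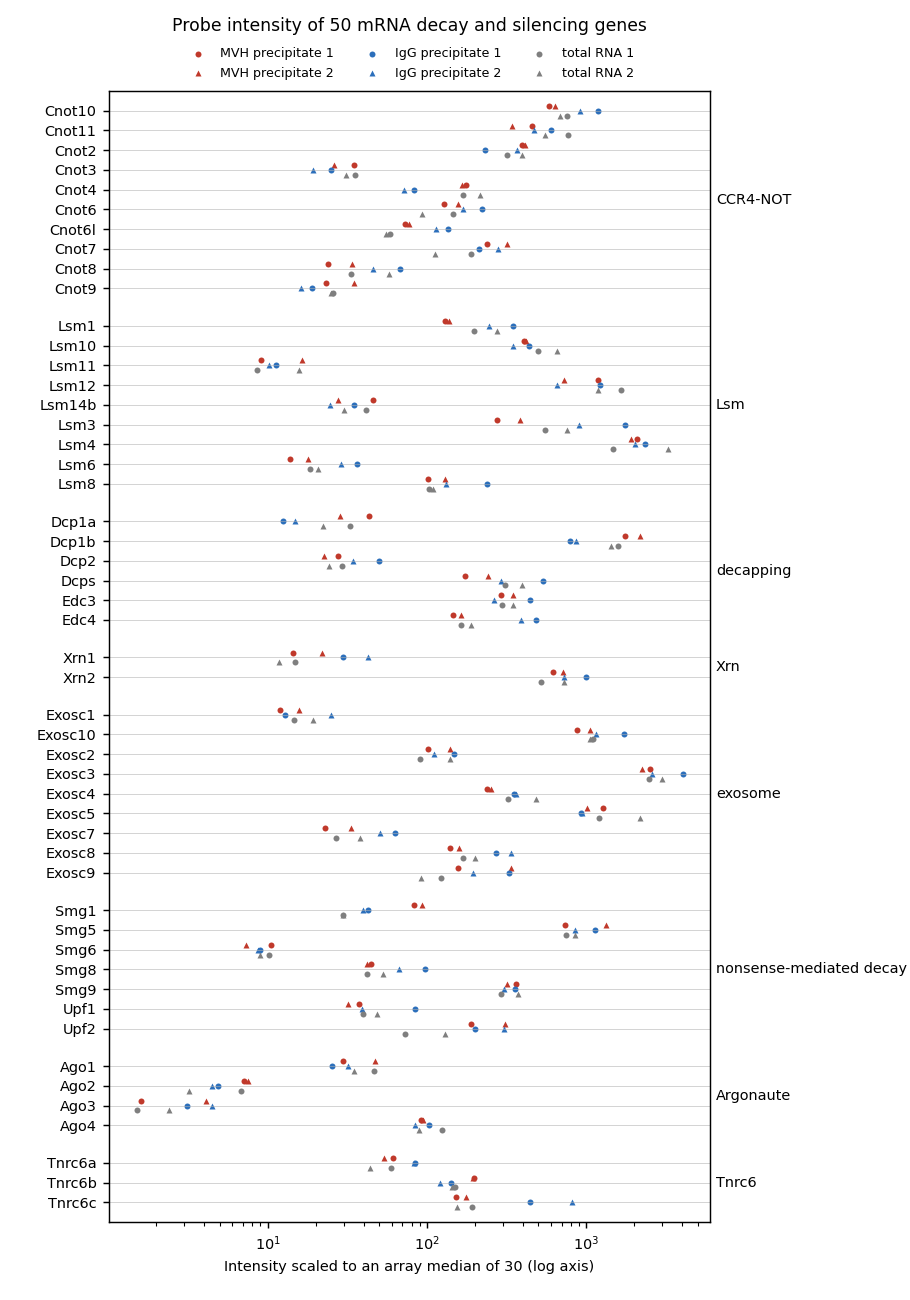
Intensity of each of the 50 genes (log axis, scaled to an array median of 30) on each array. Red marks the MVH precipitates, blue the IgG precipitates and grey total RNA, with circles for array 1 and triangles for array 2. Most genes have their 6 points close together, while those of Tnrc6c, Edc4 and Lsm3 show the IgG arrays to the right of the other 4.

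The comparison of the MVH with the IgG precipitate asks which mRNAs came down with the helicase beyond the beads and the unspecific antibody. Of the 50 genes, 4 were higher with MVH and 3 lower. The higher ones were the decapping activator genes Dcp1a and Dcp1b, the ubiquitin ligase gene Cnot4 and the kinase gene Smg1. The lower ones were Lsm3, Tnrc6c and the decapping scaffold gene Edc4. By limma with Benjamini-Hochberg adjustment over all 21574 probes tested, 3.82% of all probes were called higher and 4.15% lower (7.97% together), beside shares of 8% and 6% among these genes, which is near the background. The median log2 difference of the 50 was -0.25, with 19 above 0 and 31 below, against 0.07 for all probes tested. It was -0.13 without IgG array 1 and -0.45 without IgG array 2. It became 0.02 against 0.34 for all probes with the values as deposited, where IgG array 2 has the lowest median.

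Without any threshold on p, both MVH arrays lay below both IgG arrays for 23 of the 50 (46%), against 23.8% of all probes. Both lay above for 10 (20%), against 29.9% of all probes. With the values as deposited these counts were 10 and 12, against 11.6% and 37.6% of all probes listed on all arrays. Those 10 were Cnot6l, Edc4, Exosc7, Exosc8, Lsm1, Lsm3, Lsm6, Smg8, Tnrc6c and Xrn1. For the rest of the 23, the MVH arrays lay below the IgG arrays only after scaling. All 7 calls were lost when only the 4 arrays of the precipitates were fitted, where limma called 0 probes of the whole table. Most or all of them were also lost when any 1 array was left out. Such a fit leaves 1 array in a group, and its calls over the whole table fell too.

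**Figure D2:**
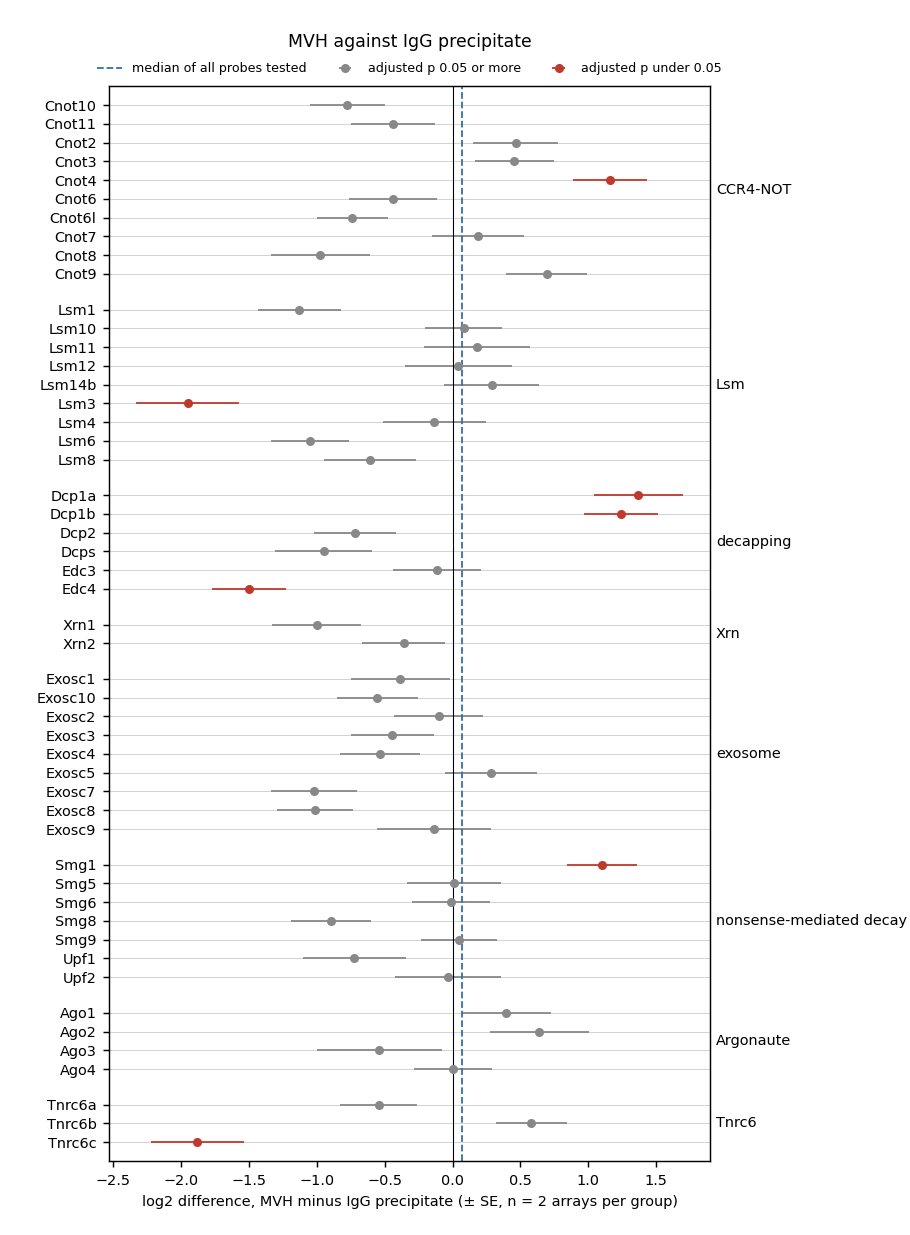
Log2 difference of each gene between the MVH and the IgG precipitate, with its standard error (n = 2 arrays per group). Red points passed an adjusted p of 0.05, and the dashed line is the median of all probes tested, 0.07. The 4 red points on the right are Cnot4, Dcp1a, Dcp1b and Smg1, and the 3 on the left are Lsm3, Edc4 and Tnrc6c.

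In the decapping group, genes whose products work in 1 enzyme complex moved in opposite directions. Dcp1a and Dcp1b encode paralogous activators of the decapping enzyme. Dcp1b had intensities of 1741 and 2183 for MVH, 786 and 866 for IgG and 1584 and 1430 for total RNA. Both IgG arrays were the lowest and both MVH arrays the highest, and Dcp1b was 2.36-fold higher with MVH than with IgG by a log2 difference of 1.24 ± 0.27 (± SE, n = 2 arrays in each group here and below; limma adjusted p = 0.0319). Dcp1a was much dimmer, at 43.4 and 28.5 for MVH, 12.5 and 14.9 for IgG and 32.6 and 22.3 for total RNA. Its MVH and total RNA values overlapped and its IgG values lay below both, with a log2 difference between the precipitates of 1.37 ± 0.33 (limma adjusted p = 0.04).

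Edc4 encodes the scaffold that joins Dcp1 to the catalytic subunit, and it went the other way. Its intensities were 145 and 162 for MVH, 485 and 389 for IgG and 162 and 189 for total RNA. The IgG arrays stood apart, and the other 4 lay close together. The difference between MVH and IgG was -1.50 ± 0.27, a 2.83-fold lower value (limma adjusted p = 0.0222). Dcp2, the catalytic subunit itself, had 27.8 and 22.5 for MVH, 49.6 and 34.2 for IgG and 29.1 and 24.2 for total RNA (log2 MVH minus IgG -0.72 ± 0.30, limma adjusted p = 0.177). Dcps, which clears the cap from short remnants, had 173 and 242, 534 and 293, and 308 and 394 in the same order (-0.95 ± 0.36, adjusted p = 0.139). For both genes the MVH arrays lay below the IgG arrays after scaling, but overlapped with them in the values as deposited. Neither difference passed the threshold. Edc3, another enhancer of decapping, had 291 and 345 for MVH, 446 and 264 for IgG and 297 and 346 for total RNA. These groups overlapped, and the 95% interval of its difference between the precipitates ran from -0.85 to 0.62.

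**Figure D3:**
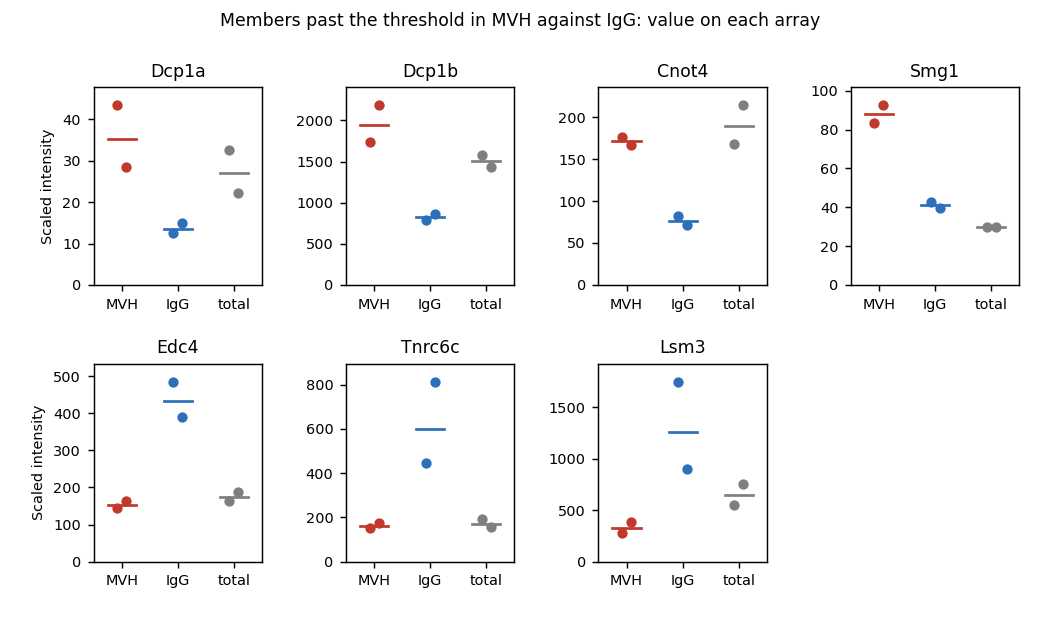
Scaled intensity of the 7 genes that passed the threshold between the MVH and IgG precipitates, on each array (points) with the geometric mean of the 2 arrays of a group (lines). The axes start at 0 and differ between panels. Smg1 has its MVH arrays above the other 4, Dcp1a, Dcp1b and Cnot4 have their IgG arrays lowest, and Edc4, Tnrc6c and Lsm3 have theirs highest.

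Of the 10 CCR4-NOT genes, 5 had a value above 0 and 5 below, and 1 passed the threshold. That share of 10% is near the 7.97% of all probes called in either direction. Cnot4 encodes the ubiquitin ligase that associates with the complex. Its intensities were 176 and 167 for MVH, 82.4 and 71.4 for IgG and 168 and 214 for total RNA. The MVH and total RNA arrays overlapped and the IgG arrays lay below them, so that Cnot4 was 2.23-fold higher with MVH than with IgG (log2 1.16 ± 0.27, limma adjusted p = 0.0394) and differed from total RNA by -0.15 ± 0.27. Cnot10, of the module that docks at the start of the Cnot1 scaffold, had 583 and 631 for MVH, 1188 and 909.7 for IgG and 752 and 686 for total RNA. Its MVH arrays were the lowest of the 6 and its IgG arrays the highest, at a difference of -0.78 ± 0.28 that did not pass (limma adjusted p = 0.118). With the values as deposited, its MVH and IgG arrays overlapped.

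The deadenylases of the complex did not differ past the threshold. Cnot8 and its close paralogue Cnot7 had log2 differences between MVH and IgG of -0.97 ± 0.37 and 0.19 ± 0.34, and Cnot6 and its paralogue Cnot6l had -0.44 ± 0.32 and -0.74 ± 0.26. Cnot6l had 72.3 and 77.0 with MVH and 135 and 114 with IgG, against 58.6 and 55.2 in total RNA, so that the 3 groups did not overlap. Cnot2 and Cnot3, of the NOT module, had 0.47 and 0.46, Cnot9, which contacts Tnrc6 proteins, 0.69, and Cnot11, the partner of Cnot10, -0.44.

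Among the 9 Lsm genes 1 was lower with MVH and none higher, and 4 had MVH arrays below both IgG arrays, beside the 4.15% and 23.8% of all probes. Lsm3, part of both the cytoplasmic ring that promotes decapping and the nuclear ring on spliceosomal RNA, had 276 and 382 for MVH, 1748 and 903 for IgG and 550.2 and 753 for total RNA. The 3 groups did not overlap, with IgG highest and MVH lowest. Lsm3 was 3.87-fold lower with MVH than with IgG (log2 -1.95 ± 0.38, limma adjusted p = 0.0241), the largest difference of the 50 genes with all 6 arrays. It varied by almost 2-fold between its IgG arrays, and the difference was -2.43 without IgG array 2 and -1.48 without IgG array 1, where that of Tnrc6c was larger at -2.32.

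The other Lsm genes with MVH below IgG were Lsm1, which marks the cytoplasmic ring, Lsm6, which both rings share, and Lsm8, which marks the nuclear ring. Lsm1 had 129 and 137 for MVH, 346 and 245 for IgG and 197 and 276 for total RNA (log2 MVH minus IgG -1.13 ± 0.31, limma adjusted p = 0.057). Lsm6 had 13.7 and 17.9, 36.3 and 29.0, and 18.4 and 20.7 in the same order (-1.05 ± 0.29, adjusted p = 0.0577). Both missed the threshold narrowly and passed it with a variance trend, with an offset before log2 or without the dimmest probes. Lsm8 differed by -0.61 ± 0.34, and its MVH and IgG arrays overlapped in the values as deposited. Lsm4, also in both rings and bright, had 2067 and 1911 for MVH, 2349 and 2024 for IgG and 1470 and 3235 for total RNA. Its groups overlapped, and its difference between the precipitates lay between -0.99 and 0.72 at 95%. Lsm10 and Lsm11, which belong to the U7 particle of histone mRNA processing instead, had 0.08 and 0.18, and Lsm12 and Lsm14b 0.04 and 0.29. For all of these the MVH and IgG arrays overlapped.

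The exonuclease genes lay lower with MVH without passing. Xrn1, which degrades decapped mRNA in the cytoplasm, had 14.4 and 21.9 for MVH, 29.8 and 42.4 for IgG and 14.8 and 11.8 for total RNA. The IgG arrays were the highest, and the MVH arrays overlapped with total RNA (log2 MVH minus IgG -1.0 ± 0.33, limma adjusted p = 0.0958). Xrn2, its nuclear counterpart, had 615 and 709, 989.5 and 726, and 517 and 719.5 in the same order (-0.36 ± 0.30).

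None of the 9 exosome genes passed limma's threshold in either direction (0 higher and 2 lower at an unadjusted p under 0.05, where 12.6% and 12.8% of all probes lay). A value below 0 was seen for 8 of them, and the median of the 9 was -0.44 against 0.07 for all probes. Among the 8, Exosc1 (-0.39), Exosc2 (-0.10) and Exosc9 (-0.14) had overlapping MVH and IgG arrays. With the values as deposited 6 of 9 lay below 0, with a median of -0.18 against 0.34 for all probes. Exosc7 and Exosc8, of the ring, had the largest differences. Exosc7 had 23.0 and 33.4 for MVH, 62.8 and 50.3 for IgG and 26.7 and 37.8 for total RNA (-1.02 ± 0.32, limma adjusted p = 0.0855), and Exosc8 differed by -1.01 ± 0.28 (adjusted p = 0.059). For both, the IgG arrays lay above the other 4. Exosc3, of the cap of the ring, was the brightest exosome probe, at 2504 and 2247 for MVH, 4014 and 2597 for IgG and 2485 and 2984 for total RNA. Its difference of -0.44 ± 0.31 did not pass. Exosc5 alone lay above 0, at 0.28 ± 0.34, and the nuclease gene Exosc10 differed by -0.55 ± 0.30.

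Of the 7 genes of nonsense-mediated decay, Smg1 was higher with MVH and the other 6 did not pass. This 1 call is 14.3% of the 7, beside 7.97% of all probes called in either direction. Smg1 encodes the kinase that phosphorylates Upf1. It had 83.4 and 92.5 for MVH, 42.6 and 39.4 for IgG and 29.7 and 29.8 for total RNA. The 3 groups did not overlap, and the MVH arrays were the highest. Smg1 was 2.14-fold higher with MVH than with IgG (log2 1.10 ± 0.26, limma adjusted p = 0.0391). Smg8 and Smg9, which bind and regulate that kinase, differed by -0.90 ± 0.30 (adjusted p = 0.1) and 0.05 ± 0.28. Upf1, the helicase at the centre of the pathway, differed by -0.72 ± 0.38, its partner Upf2 by -0.03 ± 0.39 and the endonuclease gene Smg6, a dim probe, by -0.01 ± 0.29. Smg5, an adaptor that binds phosphorylated Upf1, had 733 and 1328 for MVH, 1128 and 848 for IgG and 749.8 and 849 for total RNA, with a 95% interval from -0.77 to 0.80.

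The mRNAs of the Argonaute proteins did not differ past the threshold in any comparison (limma, also 0 of 4 at an unadjusted p under 0.05). Ago4 had 91.7 and 94.6 for MVH, 103 and 84.1 for IgG and 124 and 89.3 for total RNA. The groups overlapped, and its difference between the precipitates lay between -0.65 and 0.66 at 95%. Ago1 had 29.8 and 47.0 for MVH, 25.2 and 32.0 for IgG and 46.4 and 34.9 for total RNA (interval from -0.34 to 1.14). Ago2, which encodes the Argonaute that cleaves its targets, was dim at 7.1 and 7.5 for MVH, 4.9 and 4.47 for IgG and 6.8 and 3.2 for total RNA. Both MVH arrays were the highest, at a difference from IgG of 0.64 ± 0.37 (limma adjusted p = 0.317). Ago3 lay between 1.5 and 4.47 on all arrays, near the lowest values listed on any array (1.3 to 2), so that its values have little meaning.

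The 3 Tnrc6 genes, whose proteins link Argonaute to the deadenylases, did not move together. Tnrc6c had 151 and 175 for MVH, 444 and 812 for IgG and 192 and 154 for total RNA. Both IgG arrays were far above the other 4, and MVH and total RNA overlapped. Tnrc6c was 3.69-fold lower with MVH than with IgG (log2 -1.88 ± 0.34, limma adjusted p = 0.0218). Tnrc6a had 61.1 and 53.6 for MVH, 83.7 and 83.4 for IgG and 59.8 and 43.6 for total RNA, in the same order but smaller (-0.55 ± 0.28, adjusted p = 0.268). In the values as deposited, the MVH and IgG arrays of Tnrc6a overlapped. Tnrc6b had 197 and 196 for MVH, 142 and 121 for IgG and 150.3 and 144 for total RNA, with the MVH arrays highest and the IgG arrays lowest (0.58 ± 0.26, adjusted p = 0.207). Whether the 3 genes differ from each other in this comparison was not tested.

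Setting all 3 groups side by side shows which of them stood apart. Both IgG arrays lay above the other 4 for 16 of the 50 genes (32%), against 14.3% of all 21241 probes listed on every array. These 16 include Lsm3, Tnrc6c, Edc4, both Xrn genes, Cnot6, Cnot6l, Dcp2, Exosc7 and Exosc8. Both IgG arrays lay below the other 4 for 7 (14%), against 20% of all probes, among them Dcp1a, Dcp1b and Cnot4. Both MVH arrays lay below the other 4 for 11 (22%), against 11.5%, and above for 4 (8%), against 11.4%. Those 4 were Smg1, Dcp1b, Tnrc6b and Ago2. Both total RNA arrays lay above the other 4 for 1 gene (2%), Lsm10, against 7.14%, and below for 5 (10%), Cnot6l, Cnot7, Exosc9, Smg1 and Upf2, against 5.38%. With the values as deposited the IgG arrays were highest for 5 genes (6.01% of all probes), Cnot6l, Edc4, Exosc8, Tnrc6c and Xrn1, and lowest for 9 (27.5% of all probes), while the MVH arrays were lowest for 5 (6.18%) and highest for 5 (12.7%), and total RNA was lowest for 4 (2.84%) and highest for 1 (8.73%). Thus for Lsm3 and Exosc7, among others of the 16, the IgG arrays lie above the other 4 only after the centring of IgG array 2. For Tnrc6c, Edc4 and Xrn1 they do so without it. Lsm3 and Exosc7 still had both MVH arrays below both IgG arrays with the values as deposited.

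Markers of some somatic testis cells were also lower with MVH than with IgG. After scaling, all 6 Leydig cell probes had MVH arrays below both IgG arrays, beside 23.8% of all probes. Of the 6, 4 passed the threshold that 4.15% of all probes passed. Star and Hsd17b3 did not pass and were dim. Hsd17b3 had 3.1 and 4.1 for MVH and 6.6 and 4.33 for IgG, near the lowest values listed. The summed intensity of the 6 was 512 and 494 for MVH, 3004 and 1888 for IgG and 662 and 1134 for total RNA. Of 6 peritubular and vascular probes tested, 2 (Acta2 and Myh11) were lower and 2 lay above 0, with sums of 551 and 353, 3168 and 1476, and 420.2 and 514 in the same order. Sertoli cell probes did not move as a group: 1 of 8 (Amhr2) was lower, 5 lay above 0 and the median was 0.04. Their sums of 4040 and 3940, 8599 and 6647, and 5325 and 5662 came mostly from Clu and Amhr2. Of 6 macrophage and blood probes 1 (Pf4) was lower and 5 lay above 0, with sums between 92.0 and 108 on all arrays. The part of these cell types in the IgG values of the decay genes was not tested. Within total RNA, a gene used by fewer cells and one with less RNA per cell cannot be told apart.

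Against total RNA no gene of the 50 passed the threshold with MVH or with IgG, where limma called 0.00459% of all probes higher and 0.00918% lower for MVH, and 0.00934% higher and 0% lower for IgG. At an unadjusted p under 0.05, limma gave 4 higher and 4 lower with MVH (4.53% and 4.41% of all probes) and 12 higher and 4 lower with IgG (9.35% and 8.86%). Both MVH arrays lay above both total RNA arrays for 8 genes and below for 13, against 18.7% and 21.6% of all probes, and both IgG arrays above for 21 and below for 9, against 20% and 29.6%. Smg1 had the largest value with MVH, 2.95-fold above total RNA (log2 1.56 ± 0.26, limma adjusted p = 0.142), and it passed in that comparison with a variance trend (adjusted p = 0.0134), with an offset before log2 (0.0279) and without the dimmest probes (0.0208), settings that called 132, 74 and 100 probes of the whole table higher. Upf2 had 1.30 ± 0.39 and Exosc9, of the exosome ring, 1.12 ± 0.42, with both MVH arrays above both total RNA arrays. Lsm3 had the lowest value, -0.99 ± 0.38, followed by Lsm1 at -0.81 ± 0.31 and Dcps at -0.77 ± 0.36. The median of the 50 was -0.10 with MVH against -0.02 for all probes, and 0.27 with IgG against -0.10. The latter was 0.05 without IgG array 1 and 0.53 without IgG array 2. With the values as deposited it was 0.01, with 25 genes above 0 and 25 below, against -0.37 for all probes, and both IgG arrays lay above both total RNA arrays for 9 genes and below for 10, against 9.03% and 37.9% of all probes listed on all arrays.

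The values of each precipitate against total RNA share the total RNA arrays and are given side by side only. Tnrc6c was at -0.08 ± 0.34 with MVH and 1.80 ± 0.34 with IgG, Edc4 at -0.19 ± 0.27 and 1.31 ± 0.27, and Xrn1 at 0.43 ± 0.33 and 1.43 ± 0.33. For these genes the MVH value lay near total RNA and the IgG value above it. Lsm3 was at -0.99 and 0.96, on either side of total RNA. Dcp1b was at 0.37 ± 0.27 with MVH and -0.87 ± 0.27 with IgG, Dcp1a at 0.38 ± 0.33 and -0.98 ± 0.33, and Cnot4 at -0.15 ± 0.27 and -1.31 ± 0.27. Here the IgG value lay below total RNA. Smg1 was at 1.56 and 0.46, Upf2 at 1.30 and 1.34 and Exosc9 at 1.12 and 1.26, none of them past the threshold. With a variance trend, 5 genes were called higher with IgG than in total RNA (Tnrc6c, Edc4, Xrn1, Cnot6l and Upf2) and 1 lower (Cnot4), beside 798 and 455 probes of the whole table.

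**Figure D4:**
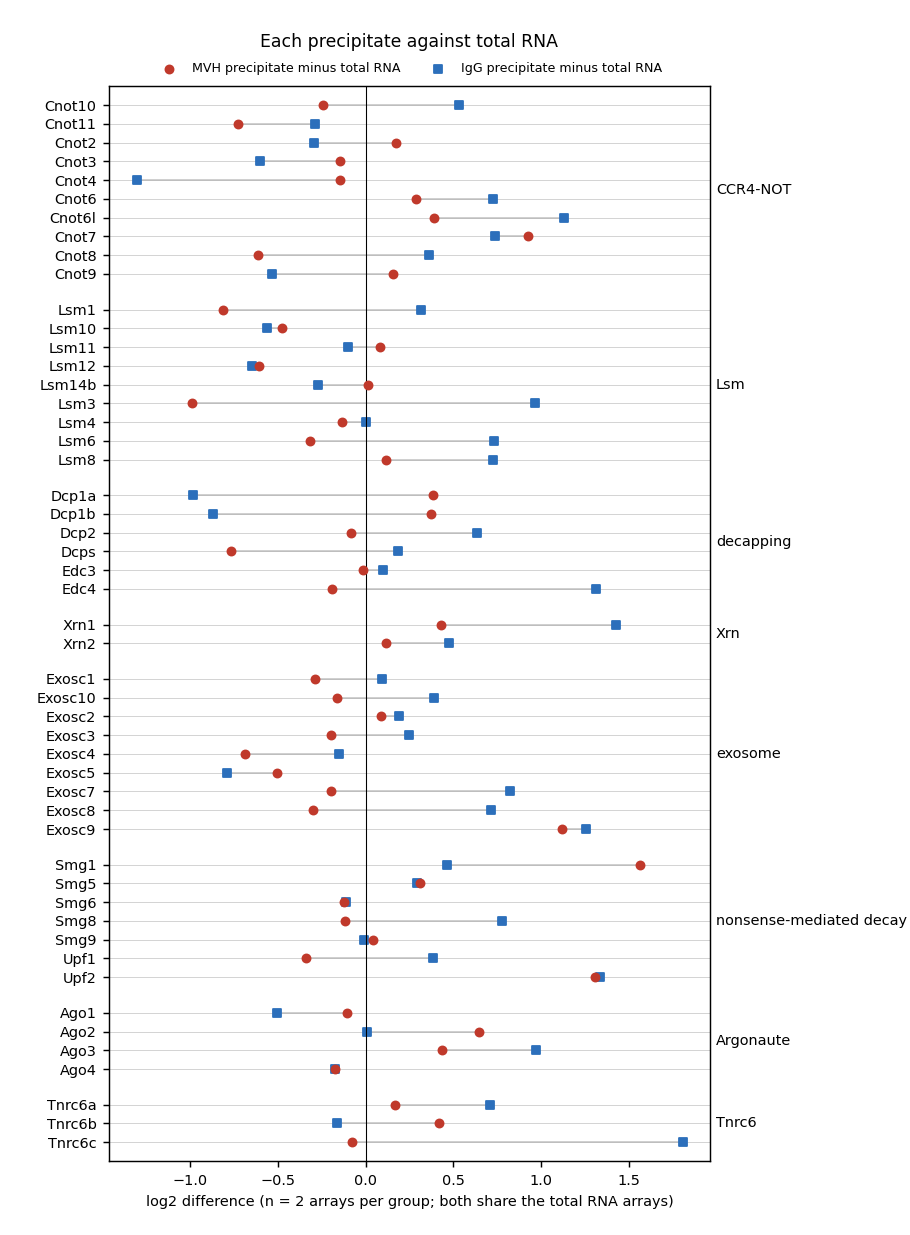
Log2 difference of each gene between the MVH precipitate (red circles) or the IgG precipitate (blue squares) and total RNA, with a grey line joining the values of a gene. For Tnrc6c, Edc4 and Xrn1 the blue square lies far to the right of 0 and the red circle near it, for Cnot4, Dcp1a and Dcp1b the square lies left of 0, and for Upf2 and Exosc9 both lie on the right.

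Genes that work with these complexes were looked at through 6 lists of 94 genes, of which 80 had a named probe, with 81 of their 83 probes tested. Of the 81, 1 was higher with MVH than with IgG and 2 were lower (1.23% and 2.47%), against the 3.82% and 4.15% of all probes, and their median was -0.09. The higher one was Pabpc1, the cytoplasmic poly(A)-binding protein gene, at 17824 and 15005 for MVH, 6153 and 6754 for IgG and 10201 and 8833 for total RNA. Its 3 groups did not overlap, with MVH highest (log2 MVH minus IgG 1.34 ± 0.27, limma adjusted p = 0.0266). The lower ones were Nanos3, a germ cell repressor that recruits the deadenylase complex (-1.80 ± 0.31, adjusted p = 0.0192), and Mov10l1, a helicase gene of the piRNA pathway (-1.22 ± 0.29, adjusted p = 0.0394). Nanos3 had 1530 and 1250 for MVH, 6038 and 3857 for IgG and 1771 and 1624 for total RNA, so that the IgG arrays stood apart as for Tnrc6c and Edc4. No gene was called in the lists of decapping partners, exosome cofactors and uridylating enzymes, exon junction complex and nonsense-mediated decay partners, or mRNA-binding regulators of decay. There limma gave 7 higher and 9 lower of 51 probes at an unadjusted p under 0.05 (13.7% and 17.6%, against 12.6% and 12.8% of all probes). These lists were pooled because they held no call, so their shares are of a selected set. Over all 81 partner probes the shares were 12.3% and 16%.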

How the data were processed

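The authors deposited 1 linear intensity per probe and array. How the arrays were scanned, corrected and scaled, and why some cells are blank, is not given in the sources used here. Aminoallyl aRNA was made from each RNA and labelled with Cy5, per the labels' protocols, so array values do not show how much RNA a precipitate held. Array medians of the deposited values were 30 on 5 arrays and 20.8 on IgG array 2.

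Probe names came from the platform annotation and were updated through RefSeq synonyms of mouse assembly GRCm38.p6 (12 of the 50 genes). Coordinates were left out because no build is named. The log2 intensities were centred on each array's median. A linear model over all 6 arrays was fitted with limma 3.58.1 in R 4.3.3 (lmFit, eBayes), which left 3 residual degrees of freedom and a prior of 5.77. Probes listed on all 4 arrays of a comparison were tested, with adjusted p-values (Benjamini-Hochberg) over all of them and a threshold of 0.05. The limma fit was checked on simulated data without blank cells. The centring and the counts of groups that do not overlap were not part of that check. Plots used matplotlib 3.10.9.

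The genes, lists and tests were chosen with earlier results of these data known. Values on every array are given for genes past the threshold, the largest difference and the brightest probe of each complex, and all decapping, Xrn, Argonaute and Tnrc6 genes. Cnot6l, Lsm1 and Lsm6 were added after their values were seen. Of the partner lists, genes past the threshold are named. Mpp6 was dropped from those lists because its mouse symbol names another gene.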

Additional observations from a re-analysis of the deposited data

How the results depend on the processing

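For MVH against IgG, 4 genes higher and 3 lower became 2 and 1 with no centring and 0 and 0 with only the 4 arrays compared. The lower count rose to 8 without the dimmest 25% of probes, 7 with an offset of 2.7 before log2, and 9 with a variance trend and robust prior, where Lsm1, Lsm6, Exosc7, Exosc8, Xrn1 and Smg8 joined Lsm3, Tnrc6c and Edc4. Over all probes the lower calls rose from 895 to 1624, 1461 and 1636 under these settings. Leaving out any 1 array lost most or all of the 7 calls, and calls over the whole table fell too. The differences then ran from 1.03 to 1.67 for the genes called higher and from -2.43 to -1.34 for those called lower. The median of the 50 genes, -0.25, moved to 0.016 with no centring, as the median of all probes moved from 0.07 to 0.34. It was between -0.45 and -0.13 when 1 array was left out. The 7 called genes kept their direction in all settings tried. With MVH against total RNA, 1 gene (Smg1) was higher instead of 0 under the same 3 settings of dim probes, offset and variance trend, where the higher calls over all probes rose from 1 to 100, 74 and 132. With IgG against total RNA the counts of 0 and 0 became 5 and 1, 4 and 1, and 5 and 1 under them, and between 0 and 1 higher when 1 array was left out. Over the whole table, limma called 773 probes higher and 410 lower with IgG than in total RNA without the dimmest probes, 621 and 341 with an offset, and 798 and 455 with a variance trend, against 2 and 0. Whether same-numbered arrays were prepared together was not tested. The deviations of same-numbered arrays correlated at 0.10 to 0.16 over 21241 probes, and 2 numbers are too few to settle this. With the array number as a replicate block 4 genes were higher and 4 lower with MVH than with IgG, Exosc8 (limma adjusted p = 0.0434) being added. Under this block, calls over the whole table rose in both directions for MVH against IgG and for IgG against total RNA. For MVH against total RNA the higher calls rose and the lower calls fell. Quantile normalization and 1 probe per gene symbol kept the counts within 1.5 times. Ago3 lies near the lowest values listed, which limits what its differences can show.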
